A study of Mus musculus with 12 samples.

Results

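The 10 genes described here encode subunits of the BAF chromatin remodelling complex. They were taken by name from a list, out of 24489 genes in the count table. The list sets 3 progenitor forms (Actl6a, Dpf2 and Phf10) against 4 neuronal forms (Actl6b, Dpf1, Dpf3 and Ss18l1) and adds 3 further subunits (Smarcc1, Smarca4 and Bcl7a). All 10 passed the filter on low counts in each of 12 comparisons.

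Reporter-positive cells of the mouse cochlea were sorted to plates of 384 wells for Smart-seq2, so that each of 12 samples is a plate. The mice carried PVcre;Ai14, except for E14.5 replicate 2, which is labelled TrkCcre, and the study's methods give Ntrk3Cre as the driver at E14.5. The sort was for cells in which a driver had switched on the reporter, so shares of classes are those of sorted wells and not of the tissue, and RNA of other cells in a well is not excluded by it. Several animals were pooled for an experiment. The labels do not say that plates of a stage are separate animals, so p-values measure the spread between plates, which may be technical. There were 3 plates for E16.5, 1 for E17.5 and 2 for each other stage (E14.5, E15.5, P3, E18.5). Kept cells carried 80997594 to 303906928 counts per plate, with a median of 108651215. The plates form 4 series by name: P3, E18.5, E16.5 replicates 1 and 2, and the 6 others. Median genes per cell were 4691 to 4983 in the last of these and 8426 to 9630 in the other plates. No well name was shared between plates.

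Of 4608 wells, 4226 passed the filter and were clustered without the 10 subunits among the features. Clusters were named from marker genes, and "-like" means that a cluster resembled a class in those genes. Spiral ganglion neuron-like (SGN-like) cells made up 54.7% (2311 cells, 31 clusters), glia-like cells 28.1% (1188 cells, 11 clusters) and otic mesenchyme-like (OM-like) cells 13.5% (569 cells, 10 clusters). Hair cell-like (HC-like) cells were 74, or 1.75%, in clusters 10 and 12 of E17.5 and E18.5. Of them, 55 fell into subclusters named vestibular and 19 into ones named cochlear. By marker level, vestibular subclusters were named from Anxa4, Sox2, Spp1, Ocm and Tectb, and cochlear ones from Gata3, Insm1, Slc26a5, Fgf8, Tbx2 and Slc17a8. Spp1 was also a leading gene of SGN-like clusters at E17.5 and E18.5. The paper kept more E18.5 hair cells as cochlear than were named so here, so these names are uncertain. SGN-like clusters were 5, 7 and 10 at E14.5, 0 and 8 at E15.5, 1 to 4 and 7 to 11 at E16.5, 1 to 3, 5 to 8 and 11 at E17.5 and E18.5, and 0 to 8 at P3. Glia-like clusters were 0 and 2 at E14.5, 1 to 4 and 6 at E15.5, 0 and 6 at E16.5, and 0 and 4 at E17.5 and E18.5. OM-like clusters were 1, 3, 4, 6, 8 and 9 at E14.5, 5 and 9 at E15.5, 5 at E16.5, and 9 at E17.5 and E18.5. Among the 10 leading genes of a cluster, 6 SGN-like clusters (all of P3), 1 glia-like and 1 OM-like cluster had none of their own markers. The other cells were 37 of otic epithelium type, 6 macrophages and 41 unnamed. Unnamed cells were 0.875% and 0.526% of the E14.5 plates, 3.22% and 4.36% of the E15.5 plates, 1.91% at E17.5 and 0.263% in E18.5 replicate 2, with none in the other 6 plates.

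BAF complexes use the energy of ATP to move nucleosomes, and several of their positions are filled by alternative paralogs. In the vertebrate nervous system, complexes of dividing progenitors carry Actl6a, with Dpf2 or Phf10 as the subunit with paired PHD fingers. In postmitotic neurons Actl6b takes the place of Actl6a, Dpf1 or Dpf3 that of Dpf2 or Phf10, and Ss18l1 that of Ss18, and the repressor REST and the microRNAs miR-9 and miR-124 are known to act on the exchange of Actl6a for Actl6b.

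Levels below are CPM: counts of the cells of a class in a plate were summed, and CPM were taken with edgeR's TMM scaling. Sums of at least 10 cells are given, which are 12 of SGN-like, 8 of glia-like, 7 of OM-like and 2 of HC-like cells. TMM factors lay between 0.892 and 1.16 except in the P3 sums (0.732 and 0.766), whose values are therefore higher than CPM of the plain total.

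Actl6b encodes the neuronal actin-related subunit. It was at 200.1 and 214 CPM in SGN-like cells of the E14.5 plates, 162 and 202 at E15.5, 175, 175 and 182 at E16.5, 159 at E17.5, 155 and 150.9 at E18.5, and 158 and 147 at P3. In glia-like sums of at least 20 cells it lay between 0.0681 and 2.57 CPM, with a mean of 1.49 ± 1.02 (SD, n = 6), and in such OM-like sums at 0.876 ± 1.18 (SD, n = 6). Each SGN-like sum was above each sum of the 3 other classes.

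The small sums stood apart. Actl6b reached 72.3 CPM in the 17 glia-like cells of E16.5 replicate 1, 32.5 in the 13 of E18.5 replicate 1 and 93.6 in the 10 OM-like cells of E16.5 replicate 2. SGN markers (9 of 9 with counts) summed to 5585 CPM in the first of these sums, 2405 in the second and 8251 in the third, each with Stmn2 as the most abundant gene (1094, 494 and 1641 CPM). In the other glia-like sums they came to 483 to 650 CPM and in the other OM-like sums to 86.7 to 222 CPM, led by Gap43, against 13700 to 17014 in SGN-like sums. OM markers in the OM-like sum of E16.5 replicate 2 were at 2606 CPM (Col3a1 led), where the other OM-like sums had 7680 to 16403. The part of neuronal RNA in these small sums was not tested.

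Actl6a encodes the actin-related subunit of progenitor complexes. In SGN-like cells it was at 101 and 74.1 CPM at E14.5, 70.3 and 75.3 at E15.5, 60.9, 55.7 and 79.0 at E16.5, 58.7 at E17.5, 61.1 and 64.0 at E18.5, and 38.9 and 46.1 at P3. Glia-like sums ran from 113 to 187 CPM with a median of 142, and OM-like sums from 73.0 to 119 with a median of 107. HC-like sums of E18.5 were at 119 and 137 CPM. No glia-like or HC-like sum was as low as the highest SGN-like sum, while OM-like and SGN-like sums overlapped between 73.0 and 101 CPM. By mean the order was glia-like (148 ± 28.1), HC-like (128 ± 12.8), OM-like (97.6 ± 20.0) and SGN-like (65.4 ± 16.2). The gap between the first pair was smaller than the SD of the glia-like sums.

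Set on a common scale, as CPM per kb of exon, both genes were present in SGN-like cells. Actl6b was at 40.6 ± 5.20 and Actl6a at 16.8 ± 4.17 CPM per kb (SD, n = 12). The ratio of Actl6b to Actl6a per kb was 1.81 and 2.63 in the E14.5 plates, 2.10 and 2.45 at E15.5, 2.62, 2.87 and 2.10 at E16.5, 2.47 at E17.5, 2.31 and 2.15 at E18.5, and 3.69 and 2.91 at P3. It was above 1 in all 12 plates and highest in those of P3. In glia-like sums of at least 20 cells the ratio was 0.000332 to 0.0167, and in the small ones 0.557 (E16.5 replicate 1) and 0.262 (E18.5 replicate 1). In OM-like sums of at least 20 cells it was 0 to 0.0257, and in the small one of E16.5 replicate 2, with its SGN markers, 1.17. In HC-like sums it was 0.143 and 0.283, so Actl6a was the more abundant form per kb there.

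**Figure D1:**
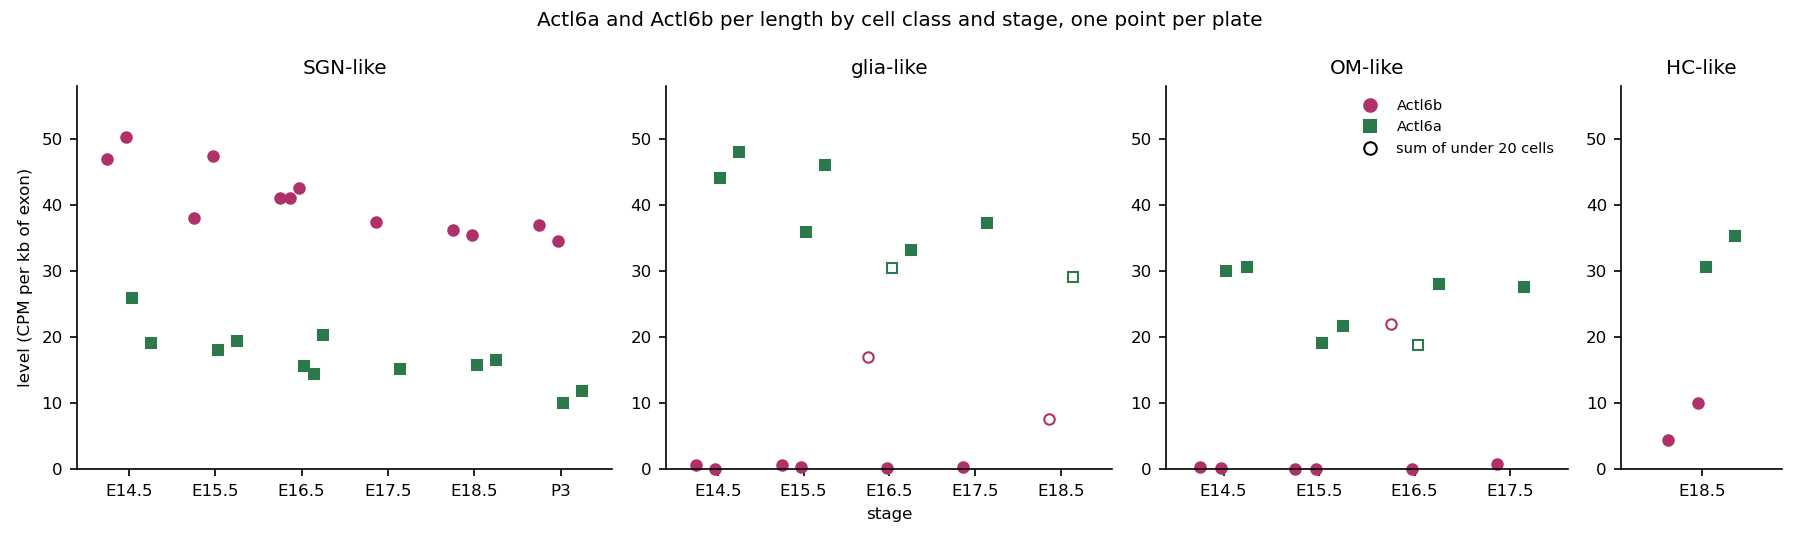
Level of Actl6b (circles) and Actl6a (squares) in CPM per kb of exon (vertical axis) by stage (horizontal axis) in 4 cell classes, with a point per plate and open symbols for sums of under 20 cells. Actl6b lies above Actl6a in each of 12 SGN-like sums (ratio 1.81 to 3.69), and below it in both HC-like sums (0.143 and 0.283).

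In single cells thinned to 100000 counts, Actl6b was seen in 93.7% of SGN-like cells at E14.5 (119 of 127; Clopper-Pearson 95% interval 88.0 to 97.2%, 3 cells with fewer counts left out), and in 93.1% without thinning. Shares at the later stages were 91.4% (E15.5), 98.8% (E16.5), 97.1% (E17.5), 99.2% (E18.5) and 99.2% (P3). In glia-like cells of E14.5 the share was 0.985% (2 of 203; 0.12 to 3.51%, 8 left out) and 1.90% without thinning, and in those of E15.5 and E17.5 it was 2.31% and 1.44%. The 25 of 245 glia-like cells with Actl6b at E16.5 were 14 of 17 in replicate 1, 8 of 8 in replicate 2 and 3 of 220 in replicate 3. Actl6a was seen in 58.6 to 81.9% of SGN-like cells by stage, and 56.2 to 81.3% had both genes. The intervals treat the pooled cells of a stage as independent and do not cover the spread between plates. Counts are of reads, which carry no molecule barcodes.

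HC-like cells held both forms. Actl6b was in 49 of 69 HC-like cells of E18.5 (71.0%; 58.8 to 81.3%, none left out), in 85.5% without thinning and in 55.1% at 50000 counts. Actl6a was in 64 of 69 (92.8%), both genes in 47 (68.1%) and Actl6a without Actl6b in 17 (24.6%). In SGN-like cells Actl6a without Actl6b was seen in 0.392 to 4.72% of cells by stage, and in glia-like cells of E14.5 to E17.5 in 49.4 to 64.0%. SGN markers in the HC-like sums came to 935 and 1499 CPM, with 9 of 9 markers counted and Nefl the most abundant (412 and 524 CPM), and their part in the Actl6b of HC-like cells was not tested. Over plain totals Actl6b was 17.8 and 42.2 CPM in these sums, and 16.3 and 17.3 among their cells with the fewest counts in markers of other classes.

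The promoter of Actl6b is shown because the gene is known to be under REST, which binds the RE1 element. Promoters of 300 bases (250 before to 50 after the start, RefSeq, GRCm38.p6) were found for 9 of the 10 genes and searched on both strands for CAGCACC and GGACAGC, the left and right parts of that element. Only that of Actl6b held either, and it held both. They are in capitals, on the strand opposite to the gene, 37 and 21 bases after the start, with 9 bases between them:
Actl6b, chr5:137553296-137553595 (+): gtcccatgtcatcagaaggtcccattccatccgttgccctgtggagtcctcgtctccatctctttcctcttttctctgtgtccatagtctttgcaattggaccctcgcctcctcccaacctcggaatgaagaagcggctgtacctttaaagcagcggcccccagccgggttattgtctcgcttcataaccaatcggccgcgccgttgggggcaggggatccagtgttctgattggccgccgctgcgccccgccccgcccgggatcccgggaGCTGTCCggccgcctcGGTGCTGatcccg
Of 32851 promoters of this length, 7.14% held CAGCACC, 6.56% GGACAGC and 13.1% either. The ordered pair with at most 10 bases between stood in 20 promoters (0.0609%), and that limit was chosen after the spacing in Actl6b was known. The spacing was not compared with that of the element itself, and a match is a description of letters and not of binding.

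Dpf1 and Dpf3 encode the neuronal subunits with paired PHD fingers, which read modified histone tails. Dpf1 was at 49.2 and 60.1 CPM in SGN-like cells of E14.5, 69.8 and 53.3 at E15.5, 36.3, 39.5 and 50.1 at E16.5, 32.5 at E17.5, 25.8 and 22.3 at E18.5, and 8.79 and 6.32 at P3. In glia-like sums it ran from 1.37 to 22.3 CPM (median 5.41), in OM-like sums from 1.62 to 30.6 (median 4.998), and it was 3.38 and 5.29 in HC-like sums. The P3 sums thus lay within the range of glia-like and OM-like sums, and the other SGN-like sums lay at 22.3 CPM or more. Dpf3 was between 19.1 and 45.7 CPM in SGN-like sums (median 31.4), 0.965 and 11.3 in glia-like sums (median 1.88) and 0 and 15.7 in OM-like sums (median 0.266). HC-like sums had 23.0 and 35.4 CPM of Dpf3, inside the SGN-like range. The highest Dpf1 and Dpf3 of the glia-like sums were in E16.5 replicate 1 and of the OM-like sums in E16.5 replicate 2, the sums with the most SGN markers.

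Dpf2 and Phf10 are the progenitor partners at that position, Phf10 as part of the PBAF form of the complex. Dpf2 was at 186 and 187 CPM in SGN-like cells of E14.5, 148 and 137 at E15.5, 100.1, 98.9 and 118 at E16.5, 96.6 at E17.5, 101 and 101 at E18.5, and 55.2 and 59.0 at P3. Glia-like sums lay between 84.6 and 130.4 CPM (median 121), OM-like sums between 58.6 and 125 (median 82.4) and HC-like sums at 89.6 and 114. The ranges of Dpf2 overlapped between all 4 classes, with the E14.5 and E15.5 SGN-like sums the highest of all 29. Phf10 was at 9.65 to 18.53 CPM in SGN-like sums (median 13.5), 19.4 to 37.9 in glia-like sums (median 28.0), 16.8 to 27.9 in OM-like sums (median 20.5) and 19.5 and 15.7 in HC-like sums. Each glia-like sum had more Phf10 than each SGN-like sum.

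Ss18l1 (CREST) encodes a transcriptional coactivator of neurons. It was at 58.01 to 140 CPM in SGN-like sums (median 102), with P3 lowest (58.01 and 64.4), 13.3 to 45.9 in glia-like sums (median 23.0), 2.41 to 38.1 in OM-like sums (median 24.7) and 41.4 and 37.5 in HC-like sums. Among the further subunits, the ATPase gene Smarca4 (BRG1) was at 163 to 772 CPM in SGN-like sums (median 573), 231 to 411 in glia-like, 208 to 387 in OM-like and 249 and 258 in HC-like sums. The scaffold gene Smarcc1 was at 67.1 to 278 CPM in SGN-like sums, 72.2 to 242 in glia-like, 217 to 287 in OM-like and 124 and 154 in HC-like sums. Bcl7a was at 47.1 to 120 CPM in SGN-like sums, 24.4 to 44.2 in glia-like, 12.3 to 53.7 in OM-like and 45.1 and 64.6 in HC-like sums. SGN-like and glia-like sums did not overlap for Ss18l1 and Bcl7a, and overlapped for Smarca4 (the P3 sums were lowest) and Smarcc1.

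**Figure D2:**
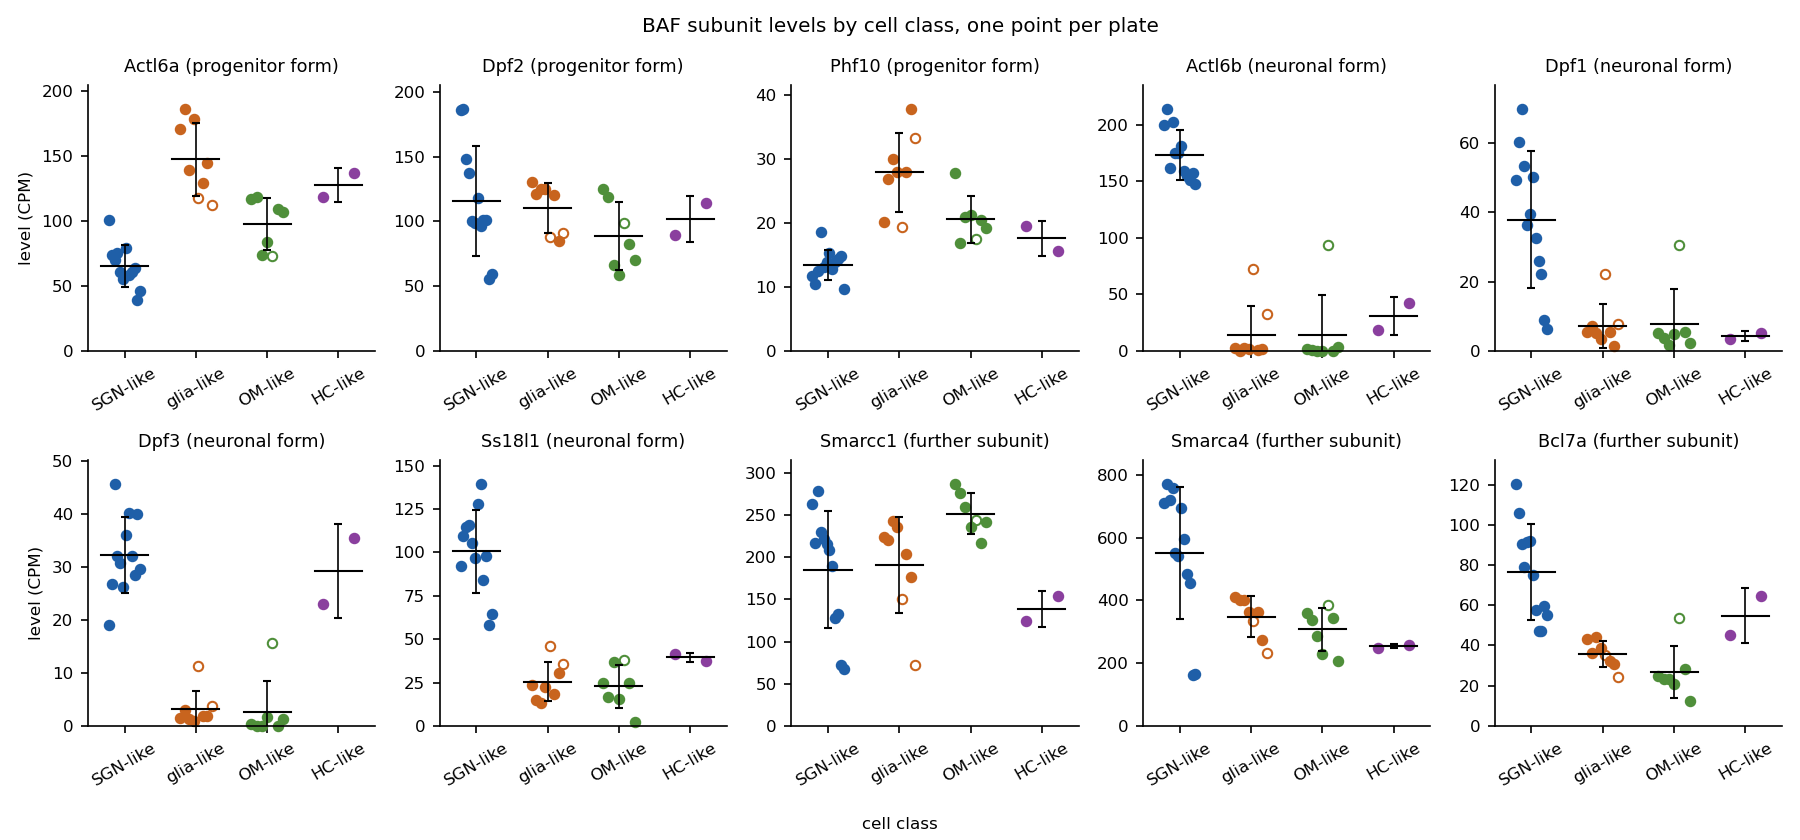
Level in CPM (vertical axis) of the 10 subunits in SGN-like, glia-like, OM-like and HC-like cells (horizontal axis), with a point per plate, open points for sums of under 20 cells, a line for the mean and a bar for the SD. Actl6b is at 147 to 214 CPM in SGN-like sums and below 4 in the filled glia-like and OM-like points, while Dpf2 overlaps between all 4 classes.

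Per kb of exon, the order within SGN-like cells was Smarca4 (85.1 ± 32.3), Actl6b (40.6 ± 5.20), Smarcc1 (23.7 ± 8.88), Ss18l1 (23.2 ± 5.51), Dpf2 (17.8 ± 6.52), Actl6a (16.8 ± 4.17), Bcl7a (8.08 ± 2.51), Dpf3 (7.63 ± 1.72), Dpf1 (7.04 ± 3.67) and Phf10 (2.73 ± 0.48; SD, n = 12). Neighbours from Smarcc1 to Actl6a, and from Bcl7a to Dpf1, differed by less than 1 SD. In glia-like cells the order by CPM per kb opened with Smarca4 (53.7 ± 10.1), Actl6a (38.0 ± 7.24), Smarcc1 (24.3 ± 7.28) and Dpf2 (17.0 ± 2.95; SD, n = 8), and Dpf1 (1.35 ± 1.19) and Dpf3 (0.749 ± 0.807) came last. Without the small sums that carry SGN markers Actl6b was lowest (0.349 ± 0.240), within 1 SD of Dpf3 (0.405 ± 0.165) and below Dpf1 (0.862 ± 0.363; SD, n = 6). In HC-like cells Smarca4 (39.2 ± 1.04) and Actl6a (32.9 ± 3.29) led, and Dpf3 (6.91 ± 2.09) and Actl6b (7.17 ± 3.97; SD, n = 2) differed by less than their spread.

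Neurons were compared with glia within plates, which asks which forms separate the classes. Of the 10 subunits, 8 were called (background over all genes 49.5%), 6 higher and 2 lower in SGN-like cells. All 4 neuronal forms were higher, led by Actl6b (log2 fold change 5.69, SE 1.24, edgeR adjusted p = 0.00107, higher in 8 of 8 plates), with Dpf3 at 3.53 (SE 0.88, adjusted p = 0.00297), Dpf1 at 2.84 (SE 0.48, adjusted p = 1.2e-04) and Ss18l1 at 2.09 (SE 0.38, adjusted p = 2.5e-04), each in 8 of 8. Of the 3 progenitor forms, Actl6a (-1.07, SE 0.10, adjusted p = 5.4e-07) and Phf10 (-1.06, SE 0.16, adjusted p = 4.7e-05) were lower in 8 of 8 plates. Dpf2 was not called (0.15, SE 0.12, adjusted p = 0.331). Smarca4 (0.85, SE 0.10, adjusted p = 4.5e-06) and Bcl7a (1.06, SE 0.15, adjusted p = 3.1e-05) were higher in 8 of 8 plates, and Smarcc1 (0.18, SE 0.09, adjusted p = 0.0945) was not called. The median of the 10 was 0.96 against -0.01 over all genes.

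With sums of at least 20 cells, which leaves out the glia-like sums with the most SGN markers, Actl6b was at 7.17 (SE 0.79, adjusted p = 3.6e-06; 5.4e-10 to 0.0155 over the alternatives), and without a plate term it was at 3.63. Cycling genes (12) summed to 1890 to 2963 CPM in glia-like sums and 164 to 549 in SGN-like sums, and their part in the difference of Actl6a was not tested. Glia markers (7) in SGN-like sums came to 15.46 to 98.0 CPM in the plates of the largest series, to 678 and 547 in E16.5 replicates 1 and 2 (Fabp7 led), to 2597 and 2602 at E18.5 (Fabp7 1890 and 1933) and to 3404 and 3749 at P3, against 5556 to 9247 in glia-like sums.

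Neurons against mesenchyme gave 9 subunits called (background 48.8%), 7 higher and 2 lower in SGN-like cells, in sums that share the SGN-like cells of the comparison with glia. The 4 neuronal forms were again higher in 7 of 7 plates: Actl6b (6.94, SE 1.39, adjusted p = 5.9e-04), Dpf3 (5.68, SE 1.15, adjusted p = 6.4e-04), Dpf1 (3.13, SE 0.52, adjusted p = 1.2e-04) and Ss18l1 (2.24, SE 0.41, adjusted p = 3.0e-04). Actl6b and Dpf3 were near the floor in OM-like sums of at least 20 cells (0 to 3.03 and 0 to 1.74 CPM). Their direction is read here, and the size of their folds is not. All 3 progenitor forms were called, and not in the same direction. Actl6a (-0.46, SE 0.10, adjusted p = 0.00156) and Phf10 (-0.65, SE 0.17, adjusted p = 0.00463) were lower in 7 of 7 plates, whereas Dpf2 was higher in 6 of 7 (0.57, SE 0.13, adjusted p = 0.00206). Smarca4 (1.11, SE 0.11, adjusted p = 1.1e-06) and Bcl7a (1.76, SE 0.17, adjusted p = 1.1e-06) were higher in 7 of 7 plates, and Smarcc1 was not called (-0.14, SE 0.09, adjusted p = 0.237). The median of the 10 was 1.43 against 0.08 over all genes. Without a plate term Actl6b was at 3.71 and Dpf3 at 3.72, and Phf10 was no longer called among the cells with the fewest counts in markers of other classes (-0.51, adjusted p = 0.221; 1.0e-04 to 0.221 over the alternatives).

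Mesenchyme and glia, both outside the neuronal lineage here, differed in 4 of the 10 subunits (background 20.2%), 1 higher and 3 lower in OM-like cells. Actl6a was lower in 6 of 6 plates (-0.61, SE 0.11, adjusted p = 7.2e-04), as were Bcl7a (-0.69, SE 0.18, adjusted p = 0.00986) and Dpf2 (-0.42, SE 0.14, adjusted p = 0.0456), and Smarcc1 was higher in 5 of 6 (0.32, SE 0.10, adjusted p = 0.0252). None of the 4 neuronal forms was called by edgeR (0 at an unadjusted p under 0.05, and 1 called by DESeq2). For Actl6b and Dpf3 this is no comparison of levels, since OM-like sums of at least 20 cells held 0 to 57 and 0 to 16 counts of them and the genes passed the filter, which all class comparisons share, with the SGN-like sums in it. The median of the 10 was -0.42 against -0.06 over all genes. Dpf2 was not called without E15.5 replicate 1 (-0.37) or 2 (-0.34), nor without E16.5 replicate 1 (-0.46) or 3 (-0.46), and with sums of at least 5 cells it was at -0.27 and Bcl7a, no longer called, at -0.38. Smarcc1 was not called without any single plate of E14.5 (0.28 and 0.29), E16.5 (0.26, 0.25 and 0.30), E17.5 (0.23) or E18.5 (0.24 and 0.29), nor without E15.5 replicate 1 (0.33).

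Hair cells were set against neurons at E18.5, the stage with enough of both. Of the 10 subunits, 3 were called (background 21.0%), Actl6a higher and Dpf1 and Smarca4 lower in HC-like cells. Actl6a was 2.12-fold higher (log2 1.09, SE 0.19, adjusted p = 5.4e-04, in 2 of 2 plates), from 61.1 and 64.0 CPM in SGN-like to 119 and 137 in HC-like sums. Dpf1 was at -2.87 (SE 0.95, adjusted p = 0.0406) and Smarca4 at -0.82 (SE 0.20, adjusted p = 0.00648), each lower in 2 of 2. Actl6b was at 18.6 and 42.6 CPM in HC-like against 155 and 150.9 in SGN-like sums, lower in both plates but not called (-3.81, SE 2.27, 95% interval -8.60 to 0.98, adjusted p = 0.257). That estimate is larger than the difference of CPM in either plate, and was -1.95 without E18.5 replicate 1 and -5.90 without replicate 2. The fit has additive class and plate terms over all class sums, so it is not these 2 plates' own difference alone. The sum of 13 glia-like cells of E18.5 replicate 1 also enters it, and its part was not tested. Dpf3 was at -0.23 (SE 1.53) and Ss18l1 at -1.44 (SE 0.73, adjusted p = 0.176). Phf10 (0.29), Smarcc1 (0.25), Bcl7a (0.14) and Dpf2 (-0.01) were not called, and the median of the 10 was -0.12 against -0.12 over all genes, which the scaling of DESeq2 moved to 0.01.

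The 2 HC-like sums carry these calls, and the number of genes called over all genes fell from 3681 to 860 without E18.5 replicate 1 and to 1452 without replicate 2. Without replicate 1, Actl6a was at 0.98 and Smarca4 at -0.94, neither called. Only 1 HC-like sum was then left, so that the spread came from the other sums of the fit. Dpf1 was not called without E16.5 replicate 3 (-2.82), E18.5 replicate 1 (-2.19) or 2 (-3.69), nor without the vestibular subclusters (-1.86), where Smarca4 (-0.73) was not called either. Those subclusters held 31 of 37 HC-like cells of replicate 1 and 20 of 32 of replicate 2, so that the 10-cell minimum left replicate 2 alone. With at least 3 cells, Actl6a was at 0.87 (SE 0.22, adjusted p = 0.00844) and Smarca4 at -0.65 (SE 0.22, adjusted p = 0.0389) in the subclusters named cochlear, a name that is uncertain as said above. HC markers (9 of 9 with counts) summed to 8278 and 8693 CPM in the HC-like sums. Otic epithelium markers (5 of 5) reached 8835 and 4891 CPM there (Tecta 5692 and 3111) and glia markers 480.3 and 423, and their part was not tested.

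**Figure D3:**
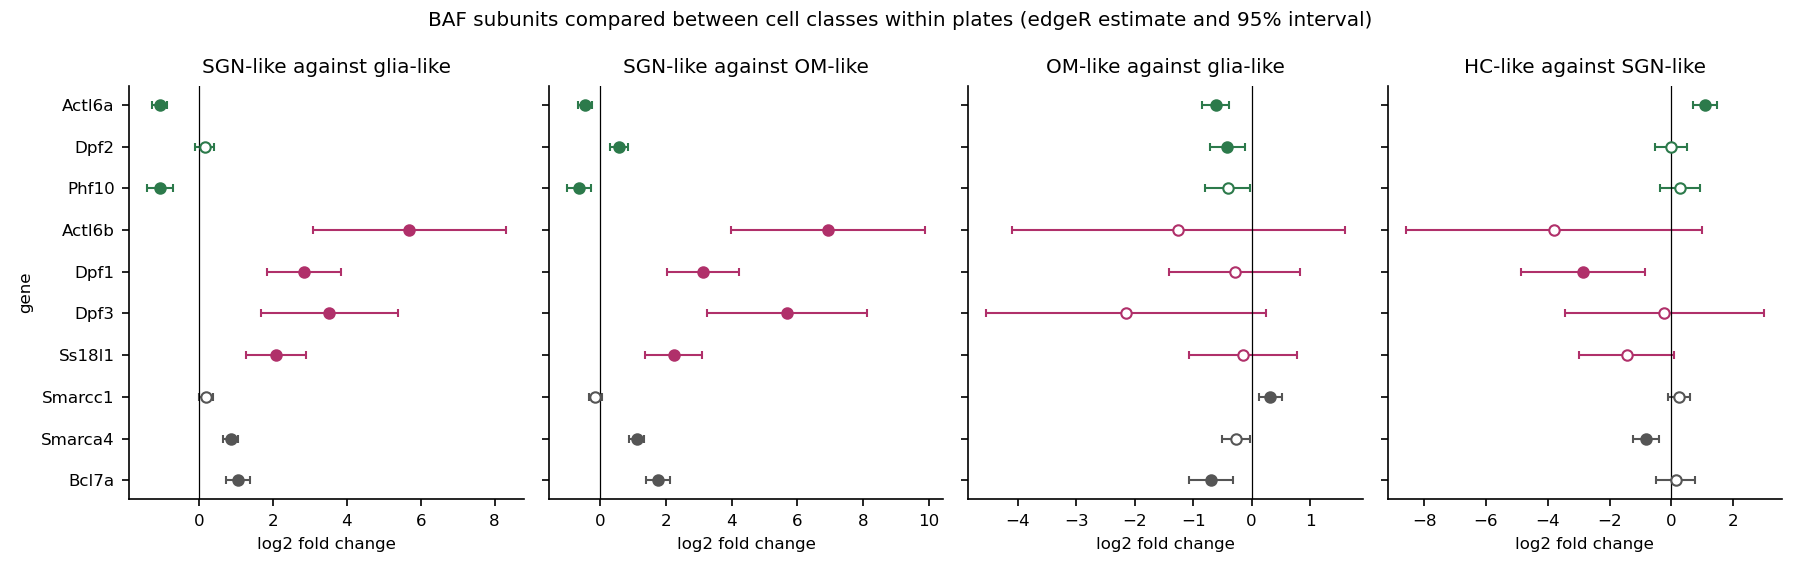
Log2 fold change (horizontal axis, edgeR estimate with 95% interval) of each subunit (vertical axis) in 4 comparisons of classes, with filled points for adjusted p under 0.05 and green for progenitor forms, magenta for neuronal forms and grey for further subunits. The 4 neuronal forms are filled to the right for SGN-like against glia-like cells (2.09 to 5.69), and Dpf2 is at 0.15 there.

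Of the 21 other subunits of BAF, PBAF and ncBAF, 10 were called between SGN-like and glia-like cells (8 higher and 2 lower in SGN-like), a share no higher than the 49.5% over all genes. Bcl11a, a zinc-finger subunit of neuronal complexes, was higher (3.78, SE 0.44, adjusted p = 3.8e-06, in 8 of 8 plates), as was its paralog Bcl11b (1.30, SE 0.32, adjusted p = 0.0027, in 8 of 8). Ss18, the paralog that Ss18l1 replaces, was lower (-1.17, SE 0.13, adjusted p = 3.1e-06, in 8 of 8), and Gltscr1l, a subunit of ncBAF, higher (1.02, SE 0.18, adjusted p = 2.1e-04). Bcl11b was not called among the cells with the fewest counts in markers of other classes (1.05). Against OM-like cells 13 of 21 were called (48.8% of all genes were), 8 higher and 5 lower in SGN-like, with Bcl11a at 2.06 (SE 0.41, adjusted p = 5.8e-04), Smarcd1 at 1.13 (SE 0.13, adjusted p = 3.2e-06), the alternative ATPase gene Smarca2 (BRM) at -1.31 (SE 0.17, adjusted p = 1.5e-05), each in 7 of 7 plates, and Bcl7c at -1.53 (SE 0.52, adjusted p = 0.0213, lower in 6 of 7). Bcl7c was not called without E14.5 replicate 2 (-1.45), E15.5 replicate 1 (-1.40) or 2 (-1.43), E16.5 replicate 3 (-1.38) or E17.5 (-1.20).

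Between OM-like and glia-like cells 7 of these 21 were called (20.2% of all genes were), 3 higher and 4 lower, with Bcl11a at 1.72 (SE 0.46, adjusted p = 0.0143), Smarca2 at 1.44 (SE 0.18, adjusted p = 3.1e-05), Bcl7b at -0.82 (SE 0.19, adjusted p = 0.00501) and Smarcd1 at -0.77 (SE 0.13, adjusted p = 4.4e-04). Bcl11a was not called there without E15.5 replicate 1 (1.49) or E16.5 replicate 3 (1.49). In HC-like against SGN-like cells 8 were called (21.0% of all genes were), 1 higher and 7 lower, with Smarcd3, a neuronal Smarcd paralog, at -2.53 (SE 0.35, adjusted p = 9.7e-05), Smarca2 at -1.79 (SE 0.33, adjusted p = 9.9e-04), Smarcd2 at 1.77 (SE 0.34, adjusted p = 0.00151) and Gltscr1l at -1.31 (SE 0.36, adjusted p = 0.0148). Without E18.5 replicate 1 neither Smarcd2 (1.65) nor Gltscr1l (-1.78) was called, and without replicate 2 Gltscr1l was at -1.16, again not called.

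By stage, the question was whether the forms exchange further in neurons between E14.5 and P3. From E14.5 to E16.5, 2 of the 10 subunits were called in SGN-like cells (background 14.9%), both lower. Dpf2 fell by 0.93 on the log2 scale (SE 0.13, adjusted p = 0.00122), with all 3 E16.5 plates (100.1, 98.9 and 118 CPM) below both E14.5 plates (186 and 187), and Bcl7a fell by 0.52 (SE 0.12, adjusted p = 0.0155), with 91.5, 91.7 and 74.8 CPM below 120 and 106. None of the neuronal forms was called by edgeR (1 at an unadjusted p under 0.05 and 1 called by DESeq2), and Actl6b was at -0.34 (SE 0.11, adjusted p = 0.0666) and Actl6a at -0.54 (SE 0.20, adjusted p = 0.104). The median of the 10 was -0.38 against 0.08 over all genes. Without E14.5 replicate 1 Bcl7a was at -0.40 (adjusted p = 0.104; 7.8e-05 to 0.343 over the alternatives). Among the cells with the fewest counts in markers of other classes it was at -0.30 and not called. In the SGN-like sums glia markers were at 43.6 and 15.46 CPM at E14.5 and 678, 547 and 28.2 at E16.5. Their part was not tested. By the labels E14.5 replicate 1 has the driver of the later plates and replicate 2 (TrkCcre) does not, whereas the methods give Ntrk3Cre for E14.5, so the part of the driver here and in the later comparison with E14.5 was not tested. The plates E16.5 replicates 1 and 2 are also of another series. The count over all genes was 2660, and 1497 or 1484 without E16.5 replicate 1 or 2.

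From E16.5 to E18.5, Smarcc1 and Bcl7a fell and 8 of the 10 subunits were not called (background 5.14%). Smarcc1 went from 221, 216 and 208 CPM to 128 and 132 (fell by 0.79 on the log2 scale, SE 0.12, adjusted p = 0.00581). Bcl7a went to 47.1 and 47.4 CPM (fell by 0.93, SE 0.12, adjusted p = 0.00287), and for both genes the stages did not overlap. No progenitor form was called by edgeR (0 at an unadjusted p under 0.05, 0 by DESeq2) and no neuronal form (2 and 1), with Dpf1 at -0.87 (SE 0.24, adjusted p = 0.0623) and Actl6b at -0.28 (SE 0.11, adjusted p = 0.212). The median was -0.31 against 0.02 over all genes. Glia markers in the same sums were at 678, 547 and 28.2 CPM at E16.5 and 2597 and 2602 at E18.5, and OM markers at 180.0, 113 and 51.3 and then 661 and 574, and their part was not tested. Among the cells with the fewest counts in such markers Smarcc1 was still called (-0.73) and Bcl7a was not (-0.73, adjusted p = 0.0588; 6.3e-13 to 0.0588 over the alternatives). These calls rest on both E18.5 plates: without replicate 1 or 2 Smarcc1 was at -0.81 or -0.84 and Bcl7a at -0.96 or -0.96, neither called, and the count over all genes was 87 or 91 in place of 919. It was 513 or 475 without E16.5 replicate 1 or 2. Both E18.5 plates are of a series that holds no E16.5 plate, so stage and series cannot be told apart.

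From E18.5 to P3, 4 subunits were called (background 24.7%), all lower. Smarca4 fell by 1.49 (SE 0.16, adjusted p = 1.1e-04) from 483 and 456 to 163 and 167 CPM, and Dpf1 by 1.65 (SE 0.26, adjusted p = 0.00109) from 25.8 and 22.3 to 8.79 and 6.32 CPM. Smarcc1 fell by 0.88 (SE 0.13, adjusted p = 7.2e-04) to 72.5 and 67.1 CPM and Dpf2 by 0.80 (SE 0.15, adjusted p = 0.00269) to 55.2 and 59.0 CPM. These genes were picked by their call (24.7% of all genes), and in each both P3 plates lay below both E18.5 plates. Actl6b was at 0.02 (SE 0.12, 95% interval -0.25 to 0.29, adjusted p = 0.931), Ss18l1 at -0.55 (SE 0.18, adjusted p = 0.0501), Actl6a at -0.53 (SE 0.22, adjusted p = 0.112) and Bcl7a at 0.31 (SE 0.13, adjusted p = 0.119). The median was -0.54 against -0.10 over all genes. Counted over plain totals, Actl6b was 140 and 135 CPM at E18.5 and 115 and 113 at P3. Glia markers stood at 2597 to 3749 CPM in these 4 sums, and among the cells with the fewest counts in markers of other classes they were at 386 and 488 CPM of the plain total at E18.5 and at 980 and 1551 at P3, where all 4 genes were still called. Each stage here is a plate series of its own, so stage and series cannot be told apart, and the count over all genes (4423) was 2149 or 2548 without E18.5 replicate 1 or 2 and 2647 without P3 replicate 2.

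Over the whole embryonic span, E14.5 to E18.5, 6 of the 10 subunits were called (background 23.5%), all lower. They were 1 progenitor form, Dpf2 (fell by 1.07, SE 0.15, adjusted p = 5.8e-04), 2 neuronal forms, Actl6b (fell by 0.62, SE 0.12, adjusted p = 0.00473) and Dpf1 (fell by 1.37, SE 0.26, adjusted p = 0.00356), and the 3 further subunits Bcl7a (fell by 1.44, SE 0.13, adjusted p = 4.6e-05), Smarcc1 (fell by 1.06, SE 0.13, adjusted p = 2.6e-04) and Smarca4 (fell by 0.84, SE 0.15, adjusted p = 0.00314). In each, picked by its call (23.5% of all genes), both E18.5 plates were below both E14.5 plates. Actl6a was at -0.67 (SE 0.22, adjusted p = 0.0538; 0.0151 to 0.275 over the alternatives), Dpf3 at 0.22, Phf10 at 0.17 and Ss18l1 at -0.33, none called. The median was -0.75 against 0.11 over all genes. Markers of other classes rise over the same span in these sums, glia markers from 43.6 and 15.46 CPM at E14.5 to 2597 and 2602 at E18.5 and OM markers from 72.7 and 98.0 to 661 and 574, and their part was not tested. Among the cells with the fewest counts in such markers the 5 other genes were still called, at -1.02 (Dpf2), -1.30 (Dpf1), -1.03 (Bcl7a), -1.07 (Smarcc1) and -0.80 (Smarca4), and Actl6b was not, at -0.45 (adjusted p = 0.0756; 1.3e-05 to 0.0756 over the alternatives). The E14.5 plates belong to another series than the E18.5 plates, and the count over all genes (4194) was 2259 or 2121 without E18.5 replicate 1 or 2. The label under which the genes were listed names a switch of forms. Against glia, 6 of the 7 forms differed in the direction of that label in 8 of 8 plates (49.5% of all genes were called there, in either direction), and Dpf2 did not. With stage in neurons no neuronal form was called higher in any of the 4 comparisons.

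**Figure D4:**
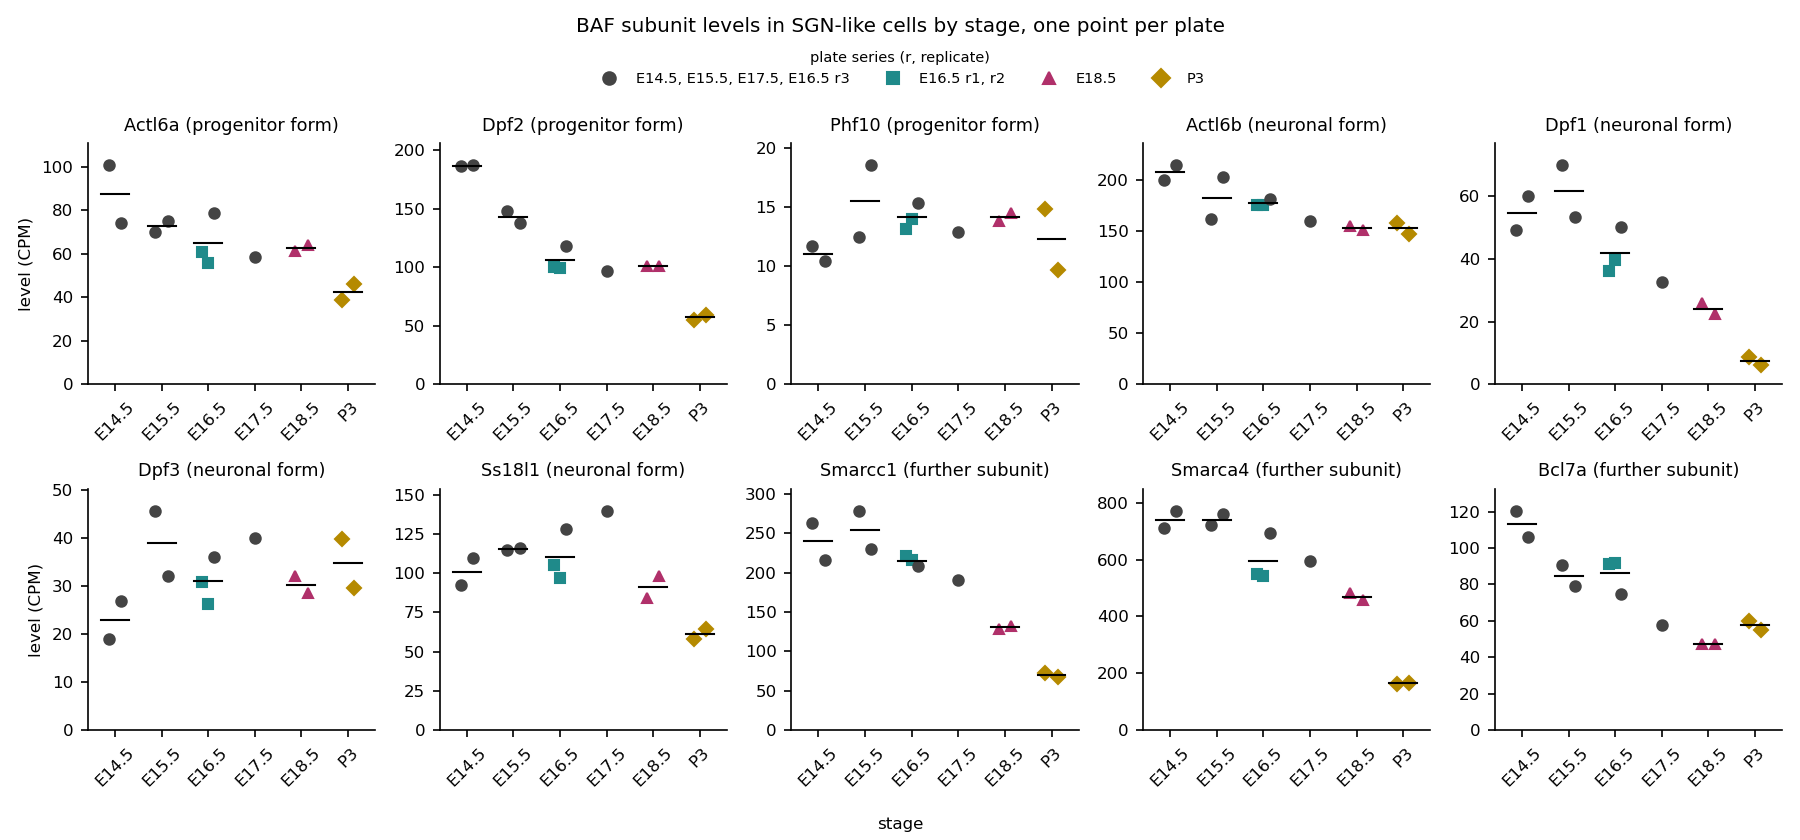
Level in CPM (vertical axis) of the 10 subunits in SGN-like cells by stage (horizontal axis), with a point per plate, symbols for the plate series and a line for the mean of stages with more than 1 plate. Smarca4 runs from 710.4 and 772 CPM at E14.5 to 163 and 167 at P3, and Actl6b from 200.1 and 214 to 158 and 147.

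Only the largest plate series spans several stages, and in it the change per embryonic day from E14.5 to E17.5 was fitted in SGN-like, glia-like and OM-like cells (6 sums each). The driver may differ at E14.5 in this series too, and its part in the slopes was not tested. No subunit was called in SGN-like cells by edgeR (3 at an unadjusted p under 0.05, 2 by DESeq2; background 3.52%). Dpf2 was at -0.33 log2 units per day (SE 0.09, edgeR adjusted p = 0.0606) and Bcl7a at -0.32 (SE 0.10, adjusted p = 0.0954). Both had the same sign as between the embryonic stages, but that fit holds the same SGN-like sums, so the signs are not independent. Actl6b was at -0.13 (SE 0.39) and Actl6a at -0.17 (SE 0.09). In glia-like cells none was called (2 unadjusted, 0 by DESeq2; background 0.225%), with Actl6a at -0.13 (SE 0.08) and Phf10 at 0.20 (SE 0.12). In OM-like cells none was called either (2 unadjusted, 0 by DESeq2; background 0.979%), with Dpf2 at -0.24 (SE 0.09, adjusted p = 0.204). Medians of the 10 were -0.13, -0.12 and -0.13, against -1.06e-16, 0.02 and -0.02 over all genes.

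The slopes of neurons and glia were also compared directly, and none of the 10 was called by edgeR (0 unadjusted, 0 by DESeq2; background 0.997%). The difference was -0.04 per day for Actl6a (SE 0.12) and -0.17 for Dpf2 (SE 0.13), with a median of -0.03 against -0.03 over all genes. Actl6b held 2 to 161 counts in the glia-like and 0 to 57 in the OM-like sums of these fits, so its slope in glia-like and OM-like cells, and the difference, are not read as a result. Counts over all genes in these 4 fits moved by over 1.5 times without single plates: to 225 or 297 of 593 for SGN-like without E14.5 replicate 1 or 2, 323 without E16.5 replicate 3 and 164 without E17.5. For glia-like they were 8, 9, 22 and 10 of 38 in the same order, for OM-like 64 and 38 of 165 without the E14.5 plates and 26 without E17.5, and for the difference 54, 72, 103 and 64 where all plates gave 0.997% of genes.

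Within a stage the SGN-like clusters differed in several subunits, given here as CPM of the plain total with no test. At E14.5, cluster 10 (29 cells) had the most of the proneural factor gene Neurod1 (1645 CPM), and 184 CPM of Actl6b, 22.6 of Dpf1, 5.23 of Dpf3 and 178 of Bcl7a. Cluster 5 (54 cells; Neurod1 370.4) had 207 CPM of Actl6b, 60.5 of Dpf1 and 30.1 of Dpf3, and cluster 7 (47 cells; Neurod1 21.2) had 229.5, 68.9 and 25.8. Over these clusters, from most to least Neurod1, Actl6a ran 110.1, 98.2 and 66.3 CPM and Phf10 18.03, 12.45 and 5.75. Dpf2 did not follow that order (154.2, 230.2 and 162.9 CPM), and Ss18l1 was at 94.97, 95.8 and 113.9 CPM. At E17.5 and E18.5, cluster 8 (59 cells) had the lowest Actl6b (78.2 CPM) and the highest Actl6a (89.0) of the 8 SGN-like clusters and glia markers at 6723 CPM, against 520.2 to 3370 in the 7 others. At P3, Actl6b ran from 78.9 CPM in cluster 1 (glia markers 3965 CPM) to 134 in cluster 6 (439 CPM), and the clusters between did not follow the order of the glia markers (cluster 5 had 133.3 CPM of Actl6b with 2670 of glia markers, and cluster 8 had 95.5 with 2614). The part of glial RNA was not tested.

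Most of the 21 other subunits were not called in SGN-like cells between neighbouring stages. From E14.5 to E16.5, 7 were called (1 higher, 6 lower; 14.9% over all genes), from E16.5 to E18.5, 4 (all lower; 5.14%), and from E18.5 to P3, 9 (1 higher, 8 lower; 24.7%). From E14.5 to E18.5 it was 13 (2 higher, 11 lower; 23.5%). Bcl11b was at -1.22 from E14.5 to E16.5 (SE 0.34, adjusted p = 0.0383), -2.06 from E18.5 to P3 (SE 0.40, adjusted p = 0.00354) and -2.39 from E14.5 to E18.5 (SE 0.40, adjusted p = 0.00185). The first of these was -0.57 without E14.5 replicate 1, and also not called without an E16.5 plate (-1.16, -1.37 and -1.13), an E18.5 plate (-1.22 and -1.22) or a P3 plate (-1.22 and -1.22). Smarcd3 rose from E14.5 to E16.5 (0.98, SE 0.20, adjusted p = 0.00835) and from E18.5 to P3 (1.15, SE 0.21, adjusted p = 0.00242), and its exons share 2564 bases with genes of the opposite strand, mostly Chpf2. Smarcd2 (-1.01, SE 0.16, adjusted p = 0.00213) and Actb, which encodes beta-actin (-1.04, SE 0.15, adjusted p = 0.00139), completed the 4 named for the first interval. Among the cells with the fewest counts in markers of other classes Smarcd2 was at -0.20 and Smarcd3 at 0.80 there, neither called, and Smarcd3 was at 0.94 from E18.5 to P3, again not called.

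Arid1b, which encodes a DNA-binding subunit, fell in 3 of these intervals: by 0.71 from E16.5 to E18.5 (SE 0.12, adjusted p = 0.00933), by 1.05 to P3 (SE 0.13, adjusted p = 2.9e-04) and by 1.29 from E14.5 to E18.5 (SE 0.13, adjusted p = 9.2e-05). From E16.5 to E18.5 Bcl11a fell by 0.68 (SE 0.10, adjusted p = 0.00524), Smarcc2 by 0.49 (SE 0.11, adjusted p = 0.0332) and Smarcd1 by 0.48 (SE 0.10, adjusted p = 0.0237). Without E18.5 replicate 1 none of the 4 was called (Arid1b -0.79, Bcl11a -0.65, Smarcc2 -0.62, Smarcd1 -0.54), and without replicate 2 Arid1b (-0.71), Smarcc2 (-0.44) and Smarcd1 (-0.49) were not. Without E16.5 replicate 1 or 2 Smarcc2 (-0.51 and -0.45) and Smarcd1 (-0.50 and -0.51) were not called. From E18.5 to P3 Arid1a fell by 1.03 (SE 0.16, adjusted p = 9.8e-04). From E14.5 to E18.5 Gltscr1 fell by 1.23 (SE 0.27, edgeR adjusted p = 0.00778) and Actb by 1.05 (SE 0.17, adjusted p = 0.00155). Gltscr1 was not called there without E18.5 replicate 2 (-1.20) or among the cells with the fewest counts in markers of other classes (-0.89). Per embryonic day 1 of the 21 was called in SGN-like cells (3.52% over all genes), Actb at -0.31 (SE 0.05, adjusted p = 0.00299; -0.37 and not called without E17.5). By edgeR none was called in glia-like cells (1 unadjusted, 0 by DESeq2), in OM-like cells (4 and 0) or for the difference (4 and 0).

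The genes that act on the exchange were read beside the subunits: 8 of 11 listed genes of the REST and miR-9/miR-124 axis are columns of the table, and Mir124a-1hg, Mir124-2hg and Mir9-3hg were not analysed here. Rest, the repressor of neuronal genes, was at 1.02 to 23.1 CPM in SGN-like sums (median 8.15), 44.99 to 127 in glia-like (median 103), 68.0 to 156 in OM-like (median 136), and 44.6 and 40.2 in HC-like sums. No SGN-like sum reached a sum of another class. Against glia-like cells Rest was lower in SGN-like in 8 of 8 plates (-3.68, SE 0.46, adjusted p = 8.0e-06) and against OM-like in 7 of 7 (-4.11, SE 0.50, adjusted p = 6.0e-06). The phosphatase genes Ctdsp1 (-3.41, SE 0.32, adjusted p = 6.8e-07) and Ctdsp2 (-2.40, SE 0.21, adjusted p = 3.5e-07), which act with REST, were lower in 8 of 8 plates, as was the corepressor gene Rcor1 (-0.41, SE 0.16, adjusted p = 0.0456), while its paralog Rcor2 was higher (1.48, SE 0.28, adjusted p = 3.6e-04). Against OM-like cells Ctdsp1 was at -3.66 (SE 0.34, adjusted p = 6.9e-07) and Ctdsp2 at -2.35 (SE 0.22, adjusted p = 6.4e-07), lower in 7 of 7 plates, Rcor1 at -0.78 (SE 0.17, adjusted p = 0.00134), lower in 6 of 7, and Rcor2 at 1.08 (SE 0.29, adjusted p = 0.00566), higher in 7 of 7. Rcor1 was not called without a plate of E14.5 (-0.46 and -0.39), E15.5 (-0.40 and -0.38), E17.5 (-0.40), E16.5 replicate 3 (-0.42) or E18.5 replicate 1 (-0.48).

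Ptbp1, a splicing repressor that miR-124 acts on, and its neuronal paralog Ptbp2 went opposite ways. Ptbp1 was at 42.5 to 111 CPM in SGN-like sums, 226 to 538 in glia-like, 222 to 587 in OM-like, and 674 and 658 in HC-like sums. Ptbp2 was at 216 to 309 CPM in SGN-like sums, 84.0 to 148 in glia-like, 60.3 to 212 in OM-like, and 34.6 and 49.98 in HC-like sums, so neither gene's SGN-like sums overlapped those of another class. Against glia-like cells Ptbp1 was at -2.55 (SE 0.22, adjusted p = 3.4e-07) and Ptbp2 at 1.26 (SE 0.16, adjusted p = 9.2e-06), each in 8 of 8 plates, and against OM-like cells at -2.80 (SE 0.23, adjusted p = 2.7e-07) and 1.17 (SE 0.17, adjusted p = 4.1e-05), each in 7 of 7. HC-like cells had more Ptbp1 (2.95, SE 0.39, adjusted p = 6.0e-05) and less Ptbp2 (-2.50, SE 0.34, adjusted p = 7.6e-05) than SGN-like cells in 2 of 2 plates, and Rest was not called (1.40, SE 0.74, adjusted p = 0.195). Of the 8 genes 2 were higher and 6 lower in SGN-like than glia-like cells (49.5% of all genes were called), 3 and 5 against OM-like (48.8%), 0 and 1 in OM-like against glia-like (20.2%), and 1 and 1 in HC-like against SGN-like cells (21.0%). The host transcript of miR-9-2, C130071C03Rik, was lower in SGN-like than glia-like cells in 8 of 8 plates (-3.40, SE 0.97, adjusted p = 0.0127) and was the 1 gene of these called between OM-like and glia-like. It was at 1.11 to 4.58 CPM in glia-like, 0 to 1.11 in SGN-like and at 0 in all 7 OM-like sums, so no fold is given against OM-like cells.

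**Figure D5:**
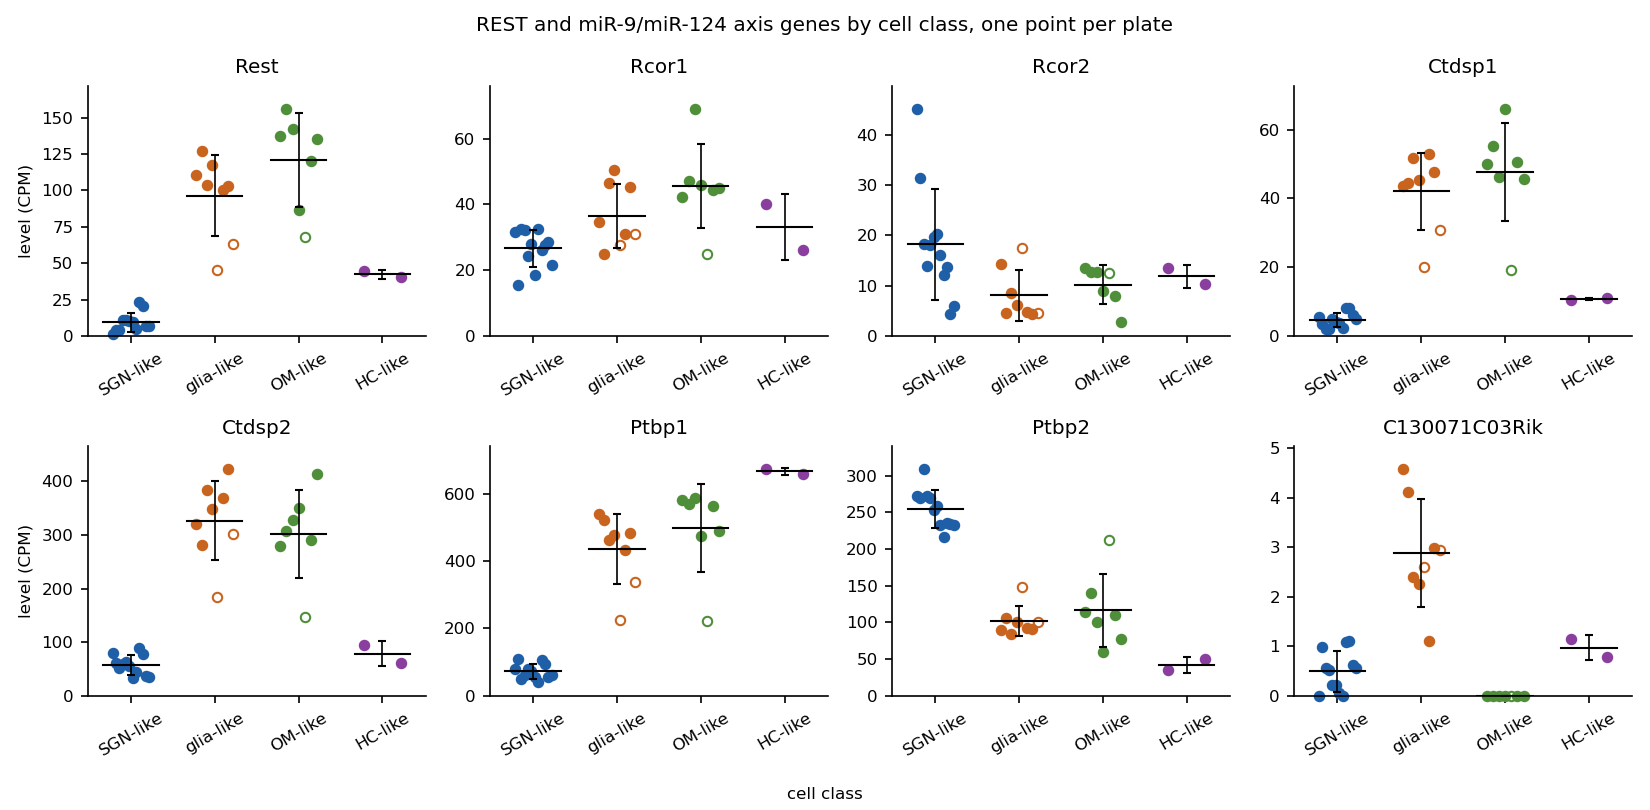
Level in CPM (vertical axis) of 8 genes of the REST and miR-9/miR-124 axis in SGN-like, glia-like, OM-like and HC-like cells (horizontal axis), with a point per plate, open points for sums of under 20 cells, a line for the mean and a bar for the SD. Rest is at 1.02 to 23.1 CPM in SGN-like sums and at 40.2 or more in every other sum, and Ptbp1 and Ptbp2 are opposite in HC-like and SGN-like sums.

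By stage in SGN-like cells, Rcor2 fell by 1.11 from E14.5 to E16.5 (SE 0.26, adjusted p = 0.0171), by 1.30 from E18.5 to P3 (SE 0.29, adjusted p = 0.00764) and by 1.76 from E14.5 to E18.5 (SE 0.29, adjusted p = 0.00181). The first was not called without E14.5 replicate 1 (-0.80) or E16.5 replicate 1 (-1.04) or 2 (-1.10), and the second not without P3 replicate 1 (-1.09). Rest rose by 2.89 (SE 0.64, edgeR adjusted p = 0.00833) from 1.02 and 4.19 CPM at E14.5 to 23.1 and 20.7 CPM at E18.5. Among the cells with the fewest counts in markers of other classes, Rest was at 0.95 there and not called. Rcor2 was among those cells at -0.37 from E14.5 to E16.5 and at -0.81 from E14.5 to E18.5, neither called. From E18.5 to P3 Ctdsp2 fell by 1.16 (SE 0.24, adjusted p = 0.00504) and Ptbp1 by 0.72 (SE 0.20, adjusted p = 0.0218), and among those cells they were at -0.14 and 0.25. Ptbp1 was not called there without E18.5 replicate 1 (-0.64) or 2 (-0.84) or P3 replicate 1 (-0.65) or 2 (-0.84). Ptbp2 fell by 0.45 from E14.5 to E18.5 (SE 0.11, edgeR adjusted p = 0.0124). It was not called there without E18.5 replicate 1 (-0.43) or among the cells with the fewest counts in markers of other classes (-0.33). From E16.5 to E18.5 edgeR called none of the 8 (4 unadjusted, 2 by DESeq2).

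Per embryonic day Ptbp1 (-0.38, SE 0.07, adjusted p = 0.00888) and Ctdsp2 (-0.30, SE 0.08, adjusted p = 0.0415) were called in SGN-like cells. Ptbp1 was not called without E14.5 replicate 2 (-0.27) or E17.5 (-0.45). Ctdsp2 was not called without an E14.5 plate (-0.23 and -0.33), an E15.5 plate (-0.30 and -0.30) or E16.5 replicate 3 (-0.24), and was at -0.52 without E17.5. By edgeR none of the 8 was called in glia-like cells (0 unadjusted, 0 by DESeq2), in OM-like cells (1 and 0) or for the difference of slopes (2 and 1).

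The microRNA miR-9-3p (miR-9*) is known to act on Actl6a, so its mature sequence (RefSeq, GRCm38.p6; encoded at 3 loci, on chromosomes 3, 7 and 13) is shown with the seed, bases 2 to 8, in capitals, beside the match in the 3′ UTR of Actl6a. The site lies 38 bases after the stop codon, in a UTR of 371 bases:
miR-9-3p: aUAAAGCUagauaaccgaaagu
Actl6a: ctcaacgtctgtAGCTTTAgtac
Among the 10 subunits, the 3′ UTR of Actl6a held 1 such match, that of Smarcc1 2 in 2396 bases, and those of the 8 others 0. A seed match is a description of letters, and the mature microRNA was not measured by these libraries.

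The genes whose pattern was most like that of Actl6b over the 29 sums, among 10909 genes, were Mast1 (Pearson r of log2(CPM + 1) 0.988), Rab3c (0.987), Svop (0.983), Chrnb2 (0.982) and Nacad (0.982). Among the subunits Dpf3 was most like it (0.935), then Dpf1 (0.825), Ss18l1 (0.819) and Bcl7a (0.784), with Smarca4 at 0.418, Dpf2 at 0.182, Smarcc1 at -0.36, Actl6a at -0.68 and Phf10 at -0.74. The genes most like Actl6a were Pak4 (0.920), Rcc2 (0.901), Baz1a (0.889), Isg20l2 (0.884) and Rxra (0.878), and Phf10 was at 0.714. The sums share 12 plates and 4 classes, and these values are descriptions.

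In mm10 Actl6b lies on chromosome 5 from 137553517 to 137569582 and Actl6a on chromosome 3 from 32706298 to 32726973. The exons of Actl6a overlap 452 bases of Mrpl47 on the opposite strand and those of Phf10 470 bases of 1600012H06Rik, and the exons of Actl6b, Dpf3 and Ss18l1 overlap no other gene. The labels give no strand for counting, so reads of such pairs cannot be told apart.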

How the data were processed

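The deposited table holds raw read counts per gene and well, which the authors made by mapping with STAR to mm10 and combining all plates, with no filter on wells. Wells with over 1000 genes and under 5% ERCC counts were kept, and clustered by stage with scanpy 1.11.5 and leidenalg 0.10.2 (2000 variable genes, 30 components, 30 neighbours, resolution 1). Features left out the 10 subunits, the other subunits, the REST axis, cycling genes and the study's glial code list (1364 of 1371 listed genes). Clusters were named from markers, and the naming rule was revised after cluster tables were seen and before any test. Counts were summed per class and plate (at least 10 cells) and tested with edgeR 4.0.16 quasi-likelihood (R 4.3.3, TMM, filterByExpr), with p-values adjusted by Benjamini-Hochberg over all genes and called under 0.05. SEs are those implied by the F statistic. Plate was a block between classes, since classes share a plate by its name in the labels. The fits were tested on simulated data. Alternatives were DESeq2 1.42.0, its size factors, other cell minima, filters and resolutions, the glial code kept, cells with the fewest counts in markers of other classes, the 5% of cells with the most counts left out, no block, and each plate left out. Named besides the 10 are the called genes with the largest changes, at most 4 per comparison, of 21 other subunits, and the REST axis genes. The members and lists were chosen with earlier results of these data known.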

Additional observations from a re-analysis of the deposited data

Results flagged for a closer look

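Among 20 groups checked (10 subunits in glia-like and OM-like sums), 8 held a sum far from the others, where chance gives about 1 in 20. Actl6b was at 72.33 CPM in the glia-like sum of E16.5 replicate 1 and 93.61 in the OM-like sum of E16.5 replicate 2. Dpf1 was at 22.28 and 30.61 CPM in the same sums and Dpf3 at 11.28 and 15.66. Bcl7a was at 53.74 CPM in the OM-like sum of E16.5 replicate 2. These are sums of 17 and 10 cells with the most SGN markers of their class (5585 and 8251 CPM), and the part of neuronal RNA was not tested. Phf10 was at 27.87 CPM in the OM-like sum of E14.5 replicate 1, which has 164 cells, and the cause was not tested.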

How the results depend on the processing

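For the 10 subunits, the calls of the 12 comparisons held in 425 of 448 results under the planned and added alternatives other than leaving out a plate, and were lost in 23. With a plate left out they held in 385 of 408 and were lost in 23, and no call changed sign. Results not called changed sign in 46 of 942 and in 38 of 712 cases. Among the other named genes 1 of 718 changed sign and 31 were lost, and with a plate left out 54 of 644 were lost. The cause was not tested in any of these.

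Calls lost under these alternatives, with the log2 value there, were as follows. With DESeq2's size factors: Dpf2 -0.39 (OM-like against glia-like), Dpf1 -2.75 (HC-like against SGN-like), Ctdsp2 -0.29 (the slope in SGN-like). With no filter: Rcor1 -0.41 (SGN-like against glia-like), Smarcc1 0.29 (OM-like against glia-like), Ctdsp2 -0.29 (the slope in SGN-like). With at least 5 cells: Rcor1 -0.35 (SGN-like against glia-like), Dpf2 -0.27, Smarcc1 0.24, Bcl7a -0.38, Bcl11a 1.104 (OM-like against glia-like), Smarcd2 1.08 (HC-like against SGN-like). With at least 20 cells: Smarcc1 0.21 (OM-like against glia-like). With resolution 2: Rcor1 -0.48 (SGN-like against glia-like), Dpf2 -0.41, Smarcc1 0.23 (OM-like against glia-like), Dpf1 -2.38, Gltscr1l -1.15 (HC-like against SGN-like). With the glial code kept: Rcor1 -0.37 (SGN-like against glia-like), Bcl11a 0.97 (OM-like against glia-like), Smarcc2 -0.46 (E18.5 against E16.5), Ptbp1 -0.43 (P3 against E18.5). With the filter of the Reporting Summary: Dpf2 -0.37 (OM-like against glia-like). With the cells with the fewest counts in markers of other classes: Bcl11b 1.05, Rcor1 -0.41 (SGN-like against glia-like), Phf10 -0.51 (SGN-like against OM-like), Smarcc1 0.18 (OM-like against glia-like), Bcl7a -0.30, Smarcd2 -0.20, Smarcd3 0.80, Bcl11b -1.65, Rcor2 -0.37 (E16.5 against E14.5), Bcl7a -0.73, Smarcc2 -0.33, Smarcd1 -0.47 (E18.5 against E16.5), Smarcd3 0.94, Ctdsp2 -0.14 (P3 against E18.5), Actl6b -0.45, Gltscr1 -0.89, Rest 0.95, Rcor2 -0.81, Ptbp2 -0.33 (E18.5 against E14.5), Ctdsp2 -0.19 (the slope in SGN-like). With 5% of cells left out: Dpf1 -3.04 (HC-like against SGN-like), Bcl11b -1.08 (E16.5 against E14.5). With no block: Dpf2 -0.30, Smarcc1 0.42, Bcl7a -0.41, Bcl11a 1.12 (OM-like against glia-like). With HC-like cells without vestibular subclusters: Dpf1 -1.86, Smarca4 -0.73, Smarcd2 1.56 (HC-like against SGN-like). With the same with at least 3 cells: Dpf1 -2.34 (HC-like against SGN-like). C130071C03Rik was no longer called between SGN-like and OM-like cells with the filter of the Reporting Summary. No fold is given for it, because its OM-like sums in the main fit held no counts. The cause was not tested.

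With DESeq2's size factors in edgeR, the sign changed for Dpf2 at 0.13 for HC-like against SGN-like, Ss18l1 at -0.0098 for E16.5 against E14.5, Smarcc1 at 0.0020 for the difference of slopes. By the DESeq2 Wald test, the sign changed for Dpf2 at 0.13 for HC-like against SGN-like, Ss18l1 at -0.0099 for E16.5 against E14.5, Smarcc1 at 0.0021 for the difference of slopes. The number of called genes was 4133 for E16.5 against E14.5, 2049 for E18.5 against E16.5, 1202 for the slope in SGN-like, 272 for the slope in glia-like, 626 for the slope in OM-like and 489 for the difference of slopes. With no filter beyond 1 count, the sign changed for Bcl7a at -0.019 for HC-like against SGN-like. With at least 5 cells per sum (3 for HC-like), the sign changed for Bcl7a at -0.19 for HC-like against SGN-like. With at least 20 cells per sum, the sign changed for Dpf2 at 0.11 and Dpf3 at 0.026 for HC-like against SGN-like. At Leiden resolution 2, the sign changed for Ss18l1 at 0.012 for OM-like against glia-like, Dpf2 at 0.11 and Dpf3 at 0.039 for HC-like against SGN-like, Ss18l1 at -0.0018 for E16.5 against E14.5. With the glial code genes kept in clustering, the sign changed for Dpf2 at 0.076 and Bcl7a at -0.0080 for HC-like against SGN-like, Actl6b at -0.067 for P3 against E18.5, Actl6b at 0.029 for the difference of slopes. With the cell filter of the Reporting Summary, the sign changed for Dpf2 at 0.068 for HC-like against SGN-like, Actl6b at -0.026 for P3 against E18.5, Phf10 at 0.027, Actl6b at -0.069 and Dpf3 at -0.62 for the slope in OM-like.

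Among the cells with the fewest counts in markers of other classes, the sign changed for Smarcc1 at 0.044 for SGN-like against OM-like, Dpf2 at 0.085 for HC-like against SGN-like, Ss18l1 at -0.0020 for E16.5 against E14.5, Dpf3 at 0.15 for E18.5 against E16.5, Actl6b at -0.18, Dpf3 at -0.12 and Ptbp1 at 0.25 for P3 against E18.5, Phf10 at -0.12 for E18.5 against E14.5, Phf10 at -0.30 for the slope in SGN-like, Actl6b at -0.42 and Dpf1 at 0.13 for the slope in OM-like, Actl6a at 0.15, Actl6b at 0.32 and Bcl7a at 0.086 for the difference of slopes. The number of called genes was 1250 for E16.5 against E14.5, 532 for E18.5 against E16.5, 2913 for P3 against E18.5, 2691 for E18.5 against E14.5, 186 for the slope in SGN-like, 24 for the slope in glia-like, 93 for the slope in OM-like and 67 for the difference of slopes. The cause was not tested.

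With the 5% of cells with the most counts left out, the sign changed for Dpf2 at 0.051 and Dpf3 at 0.049 for HC-like against SGN-like, Ss18l1 at 0.046 for the difference of slopes. With no replicate block (plate left out of the model), the sign changed for Dpf1 at 0.054 for OM-like against glia-like, Smarcc1 at -0.59 and Bcl7a at -0.56 for HC-like against SGN-like. The number of called genes was 5543 for HC-like against SGN-like. Without vestibular subclusters and with at least 3 HC-like cells, the sign changed for Dpf2 at 0.17 for HC-like against SGN-like. Without vestibular subclusters, the sign changed for Dpf2 at 0.25, Phf10 at -0.13 and Dpf3 at 0.0057 for HC-like against SGN-like. The number of called genes was 1580 for HC-like against SGN-like. With plate as a replicate block, the number of called genes was 96 for the difference of slopes. Plate is the block (the pairing of classes within a plate) in the comparisons between classes, and without it Actl6b was at 3.63 rather than 5.69 for SGN-like against glia-like. DESeq2's size factors moved the median of all genes for HC-like against SGN-like from -0.12 to 0.01.

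With each plate left out in turn, the lowest and highest log2 values of results that changed sign were as follows. For OM-like against glia-like: Ss18l1 -0.49 to 0.14. For HC-like against SGN-like: Dpf2 -0.28 to 0.063, Phf10 -0.0016 to 0.33, Dpf3 -0.81 to 0.20 and Bcl7a -0.23 to 0.33. For E16.5 against E14.5: Ss18l1 -0.17 to 0.14. For E18.5 against E16.5: Actl6a -0.29 to 0.090, Dpf2 -0.24 to 0.0088, Phf10 -0.16 to 0.049 and Dpf3 -0.27 to 0.076. For P3 against E18.5: Phf10 -0.52 to 0.056, Actl6b -0.021 to 0.029 and Dpf3 -0.0059 to 0.38. For the slope in glia-like: Actl6b -0.38 to 0.20, Dpf3 -0.21 to 0.23 and Ss18l1 -0.051 to 0.31. For the slope in OM-like: Actl6a -0.11 to 0.027, Phf10 -0.16 to 0.029, Actl6b -4.06 to 0.54, Dpf1 -0.33 to 0.079, Ss18l1 -0.97 to 0.16 and Bcl7a -0.32 to 0.094. For the difference of slopes: Actl6a -0.11 to 0.12, Phf10 -0.24 to 0.12, Actl6b -0.34 to 0.28, Ss18l1 -0.20 to 0.22 and Smarcc1 -0.046 to 0.021. The cause was not tested.

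The number of called genes with a plate left out ran from 860 to 3976 for HC-like against SGN-like, 1484 to 3528 for E16.5 against E14.5, 87 to 1367 for E18.5 against E16.5, 2149 to 5279 for P3 against E18.5, 2121 to 5001 for E18.5 against E14.5, 164 to 594 for the slope in SGN-like, 8 to 35 for the slope in glia-like, 26 to 202 for the slope in OM-like and 54 to 171 for the difference of slopes. Fits with a plate fewer also have fewer degrees of freedom, and how much of the range comes from that was not tested.

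The 2 alternatives added after the data were seen are clusters named from a marker level of 2, and HC-like cells without vestibular subclusters with at least 3 cells.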
